A study of Caenorhabditis elegans with 2 samples.

Results

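The genes of the pre-mRNA splicing machinery were examined for recovery of the eGFP-tagged protein F16B12.6 in Caenorhabditis elegans. They were chosen by name, as the protein-coding genes of the Ensembl WBcel235 annotation whose symbol starts with snr-, lsm-, prp-, rsp- or uaf-. The rule found 37 of the 19973 protein-coding genes on the nuclear chromosomes: 7 snr, 7 lsm, 13 prp, 8 rsp and 2 uaf genes. The rule uses no peak value, but the set was proposed with earlier results of these data known. The worms were whole larvae of the first stage (L1), with the sexes not separated, of strain OP114 with genotype unc-119(tm4063) III; wgIs114. The assay was ChIP-seq, in which the DNA bound to the tagged protein is pulled down with an antibody and sequenced. It was done on 2 biological replicates, which form 1 group, and both carry the same mutation and transgene. The tagged protein came from an insertion, and all cell types of the larva were in each sample, so a site used in a few cells and one used in many cannot be told apart. The labels name a control experiment that is not analysed here as a sample.

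Splicing removes introns from pre-mRNA in the spliceosome, which is built from small nuclear RNAs and their proteins. The 7 Sm proteins form a ring on the U1, U2, U4 and U5 RNAs, and the related Lsm proteins form a ring on U6 RNA in the nucleus and another ring that acts in mRNA decay in the cytoplasm. The prp genes are named after yeast splicing mutants and encode proteins of the spliceosome itself, the rsp genes encode SR proteins that bind exons and recruit the machinery, and the uaf genes encode the large and small subunit of U2AF, which recognises the end of the intron. In worms splicing also joins a short leader to many mRNAs, so the annotated 5' end of a gene is often a splice acceptor and not the start of transcription. Worm genes are also often arranged in operons, in which one promoter serves several genes.

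A gene was called bound when the summit of a thresholded peak lay between 1000 bp upstream and 200 bp downstream of its annotated 5' end. The thresholded list, made by the authors from both replicates pooled, holds 2183 peaks with signal values from 21.7 to 1543 and a median of 47.9. The signal value is the strength that the authors' peak caller gave each entry, on a scale that is not stated, so it is compared only within a list. The authors' relaxed lists, 1 per replicate and 1 for the pooled data, each hold 30000 ranked entries of peaks and background, and rank 1 is the strongest. No source used here gives the depth of sequencing. With 1 group of 2 replicates no test between conditions can be made, and the counts are read beside the share of all genes called in the same way.

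The sequences at the summits of 7 peaks are given because they hold a peak of each gene class, among them that at snr-5 with a motif at its summit, and both peaks that serve a pair of splicing genes. Each is the 101 bp centred on the summit, plus strand, 5' to 3', read from the RefSeq WBcel235 genome, which shares its coordinates with the ce11 lists. Capitals mark ACGCAG or GCGTAC on either strand. The peaks at snr-6, lsm-6, prp-31 and snr-7 are described by their values alone.
snr-5, chrIII:7861678-7861778: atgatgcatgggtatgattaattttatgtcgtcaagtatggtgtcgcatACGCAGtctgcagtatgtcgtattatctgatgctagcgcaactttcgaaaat
lsm-1, chrII:11126547-11126647: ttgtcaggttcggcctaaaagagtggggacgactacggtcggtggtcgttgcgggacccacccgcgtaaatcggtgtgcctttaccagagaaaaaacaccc
prp-9, chrII:8525495-8525595: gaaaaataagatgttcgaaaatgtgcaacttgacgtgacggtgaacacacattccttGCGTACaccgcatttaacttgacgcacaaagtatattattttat
rsp-6, chrIV:7791365-7791465: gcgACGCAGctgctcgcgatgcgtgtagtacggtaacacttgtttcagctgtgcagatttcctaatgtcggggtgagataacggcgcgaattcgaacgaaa
uaf-2, chrIV:17118740-17118840: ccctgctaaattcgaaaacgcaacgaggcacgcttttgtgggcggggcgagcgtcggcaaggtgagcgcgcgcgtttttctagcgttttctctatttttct
snr-3 and rsp-5, chrII:6489945-6490045: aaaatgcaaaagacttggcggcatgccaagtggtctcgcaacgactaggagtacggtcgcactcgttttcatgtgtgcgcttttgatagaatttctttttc
rsp-1 and rsp-2, chrII:11453170-11453270: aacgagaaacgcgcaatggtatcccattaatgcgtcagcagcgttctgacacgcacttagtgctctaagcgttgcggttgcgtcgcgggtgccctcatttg

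The motif ACGCAG, which had been seen in these data before, was present at a share of the splicing gene peaks close to that of all promoter peaks. It occurred on either strand in the 100 bp around the summit at 4 of 22 peaks (18.2%, 95% Wilson interval 7.31 to 38.5%), namely those at snr-5, rsp-3, rsp-6 and rsp-7. Of all 1661 thresholded promoter peaks, 293 had it (17.6%, 15.9 to 19.5%), against 314 of 6581 weaker relaxed entries in promoter windows (4.77%, 4.28 to 5.31%). At snr-5 the motif starts 1 bp before the summit (relative position -1), and at rsp-6 it lies near the edge of the window (relative position -47). Over whole promoter windows of 1201 bp, 15 of the 37 splicing genes had it (40.5%, 26.3 to 56.5%) and 4770 of all 19973 genes (23.9%, 23.3 to 24.5%). Windows of facing genes overlap, so 1 motif can count for 2 genes. The 2 groups also differ in their share of bound genes (64.9% against 11.8%), and the difference in motif share was not tested.

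GCGTAC was the 6-base sequence with the largest ratio of its share at promoter peaks away from the splicing genes (13.3%) to its share at weaker promoter entries (1.28%), among those present at 10% or more of these peaks. It was chosen after the values were seen, but without the peaks of the splicing genes. It was present at 4 of their 22 peaks (18.2%, Wilson interval 7.31 to 38.5%), among them those at prp-9 and prp-19. The end of GTACGC, the reverse complement of GCGTAC, can overlap the start of ACGCAG. At least 1 of the 2 was present at 8 of 22 peaks (36.4%), against 452 of 1661 promoter peaks (27.2%) and 5.87% of weaker promoter entries. In the other 14 peaks, which include the shared peaks of snr-3 with rsp-5 and of rsp-1 with rsp-2, neither sequence is in this window. The 100 bp at the splicing gene summits had a median of 49.5% G and C (34.0 to 56.0%), against 47.0% at all promoter peaks and 37.0% at weaker promoter entries.

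Most splicing genes had a thresholded summit at their promoter. Of the 37 genes 24 were bound (64.9%, Wilson interval 48.8 to 78.2%), against 11.8% of all genes (2356 of 19973). These 24 genes held 22 different peaks, because snr-3 and rsp-5 share a peak, as do rsp-1 and rsp-2. The median signal of the strongest peak was 88.4 over the bound splicing genes (23.3 to 613.8) and 58.7 over all bound genes. No splicing gene of the rule lies on the X chromosome, which holds 13.7% of protein-coding genes, and of the genes on the autosomes 12.7% were bound.

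Among the classes, the SR protein and Sm genes had the largest shares bound and the prp genes the smallest. The share was 7 of 8 for rsp genes (87.5%, Wilson interval 52.9 to 97.8%), 6 of 7 for snr genes (85.7%, 48.7 to 97.4%), 5 of 7 for lsm genes (71.4%, 35.9 to 91.8%), 5 of 13 for prp genes (38.5%, 17.7 to 64.5%) and 1 of 2 for uaf genes. The intervals of these small classes overlap, and the difference between classes was not tested. Strength followed another order: the median signal of bound genes was 154 for snr, 107 for prp, 88.4 for rsp and 38.8 for lsm. All 5 bound prp genes were above the median of all thresholded peaks, while of the 5 bound lsm genes lsm-6 alone was. With only the 1091 strongest peaks, 15 of the 37 splicing genes were bound (40.5%, against 6.83% of all genes), among them 1 lsm gene and no uaf gene.

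**Figure D1:**
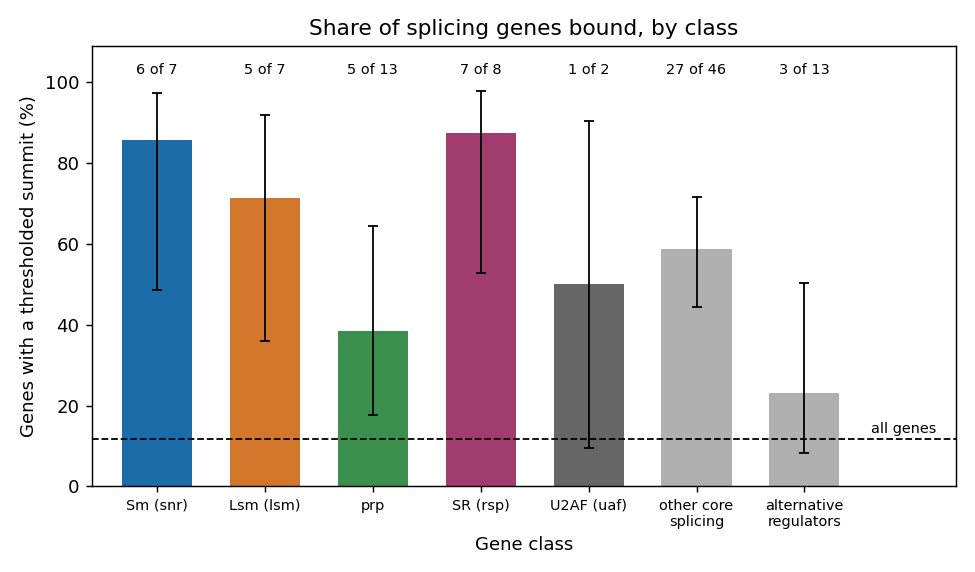
Share of genes with a thresholded summit in the promoter window (vertical axis, percent) for the 5 classes of splicing genes and for the lists of other core splicing genes and alternative splicing regulators; error bars are 95% Wilson intervals, the counts stand above the bars and the dashed line is the share of all protein-coding genes (11.8%). The rsp and snr bars are the highest (87.5% and 85.7%), and the prp bar (38.5%) is the lowest of the classes apart from the regulators (23.1%).

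The Sm genes held the strongest peak of all the splicing genes. It lay at snr-6 (SmE; WBGene00004919) on chromosome III, with a pooled signal of 614 at rank 50. The signal was 377 in replicate 1 (rank 47) and 238 in replicate 2 (rank 59), so both replicates placed it among their strongest entries. Its summit lay upstream of the gene and also within the promoter window of Y49E10.16 on the other strand.

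snr-7 (SmG) and snr-5 (SmF) followed among the Sm genes. At snr-7 the pooled signal was 269.8, with rank 369 in replicate 1 and 290 in replicate 2. At snr-5 it was 230.0, with ranks of 382 and 394. The ranks at snr-5 thus differed little between replicates. Its peak (III, 7861622 to 7861827) is also held by cuc-1, a copper chaperone gene, and the snr-7 peak by Y71F9B.6.

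The other Sm genes had weaker peaks. snr-4 (SmD2) had a pooled signal of 77.3 and ranks of 691 and 927, and no other gene's window held its summit. snr-2 (SmB) had 32.7 and ranks of 1629 and 1703, and snr-3 (SmD1) had 34.0 and ranks of 1492 and 1716. snr-1 (SmD3) was not bound, and its replicates differed: the strongest entry in its window had rank 2053 in replicate 1, inside the number of thresholded peaks, and rank 11612 in replicate 2. In the pooled list that entry had a signal of 14.4 and rank 3070.

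The summits of the 6 bound Sm genes lay between -374 and -234 bp from the annotated 5' end with a median of -309 bp. A summit within 400 bp upstream was common: it held for 20 of the 24 bound splicing genes (83.3%) and 72.8% of all bound genes. Over all 24 bound splicing genes the median was -274 bp with a range from -937 to -23 bp, and over all bound genes it was -217 bp. All 24 had the summit upstream of the 5' end, as did 95.9% of all bound genes. All 22 peaks had their summit outside the body of any protein-coding gene, which held for 88.9% of the 1661 promoter peaks.

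**Figure D2:**
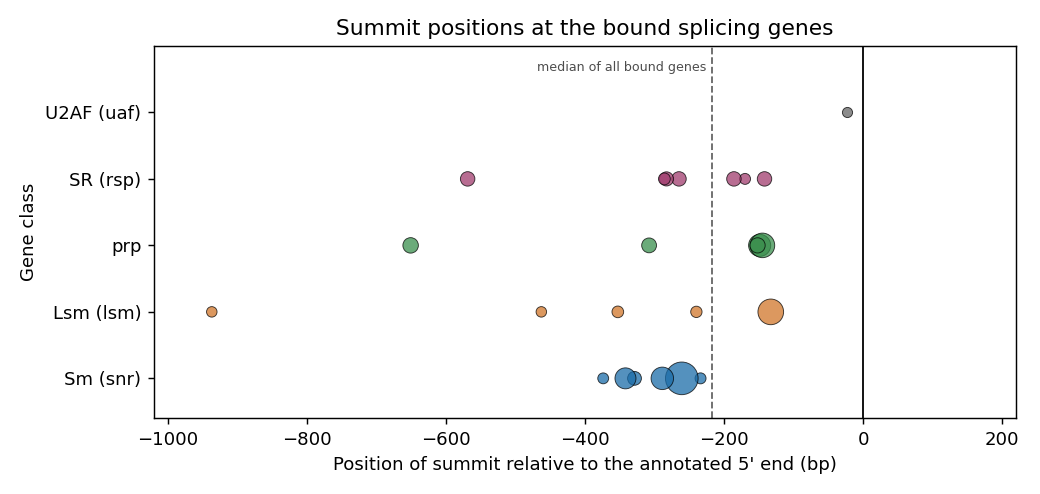
Position of the summit relative to the annotated 5' end (horizontal axis, bp, negative is upstream) for the 24 bound splicing genes by class (rows); a point is a gene, its area grows with the pooled signal value and the dashed line is the median of all bound genes (-217 bp). The 6 Sm genes lie between -374 and -234 bp, and the lsm genes spread from -937 to -133 bp.

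Among the lsm genes of the naming rule, a single strong peak stood apart from weak ones. lsm-6, whose product is part of both Lsm rings, had a pooled signal of 364, with rank 234 in replicate 1 and 203 in replicate 2. Its summit lay at -133 bp, and the window of Y71G12B.13 holds it too. lsm-6 starts 232 bp behind ubc-3 on the same strand. lsm-1, which belongs to the cytoplasmic ring, had a signal of 43.6 and ranks of 1520 and 901, at a peak that it shares with rps-9, a small ribosomal subunit gene. lsm-7 had 38.8 and ranks of 1624 and 834, at a peak shared with the dynactin gene dnc-1.

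The remaining lsm genes of the naming rule were near or below the threshold. A gene for an Lsm protein with another symbol would not be in this class. lsm-5 had a pooled signal of 27.8 and ranks of 1743 and 2213. lsm-3 had 27.6 and rank 1440 in replicate 1, but no entry of replicate 2 lay in its window. That summit lay -937 bp from lsm-3, and mdt-9, Y62E10A.20 and Y62E10A.23 hold it too. lsm-4 was not bound, with a pooled entry of signal 9.74 at rank 5216. lsm-8, which defines the nuclear ring, had no entry in any of the relaxed lists.

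The bound prp genes encode proteins of several parts of the spliceosome. prp-31, of the U4/U6 particle, had the strongest peak, with a pooled signal of 330 and ranks of 241 and 313, and shares it with mat-1, a gene of the anaphase-promoting complex. prp-9, of the SF3A complex of the U2 particle, had 259.7 with ranks of 335 and 395 at a peak (II, 8525445 to 8525640) that it shares with the mitochondrial ribosomal protein gene mrps-18B. prp-19, the ubiquitin ligase of the complex that joins at activation, had 107 with ranks of 531 and 779. Its summit lay further away, at -651 bp, close to K10D2.5 and emb-1. prp-40, of the U1 particle, had 102.1 with ranks of 564 and 748, and prp-8, the central protein of the U5 particle, had 95.2 with ranks of 686 and 595.

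The 8 unbound prp genes differed in how far they were from the threshold. The weakest thresholded peak of the whole list had a signal of 21.7. prp-4 was just outside with a pooled signal of 19.4 at rank 2386, and its rank was 4745 in replicate 1 and 2083 in replicate 2. prp-6 had 17.5 at rank 2591, with ranks of 2423 and 14753. On the inner side the nearest splicing gene was uaf-2 with 23.3 at rank 2047.

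The other unbound prp genes had weak entries or none. prp-18 had a pooled signal of 10.06 at rank 4907, prp-21 had 9.68 at rank 5284 and prp-17 had 5.64 at rank 18924. prp-38 and prp-39 had no pooled entry and an entry in replicate 1 alone, at ranks 23997 and 10074. prp-3 had no entry in any list. The proteins of prp-3, prp-4 and prp-6 belong with those of prp-8 and prp-31 to the particle of U4, U6 and U5. Of these genes prp-8 and prp-31 were bound, and prp-3, prp-4 and prp-6 were not.

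Most SR protein genes had peaks of similar strength. rsp-6, rsp-8, rsp-1, rsp-2 and rsp-3 had pooled signals between 82.8 and 88.7, at ranks from 664 to 701. Of these, rsp-1 and rsp-2 hold the same peak, so their values are the same. In replicate 1 their ranks were 648 at rsp-6, 625 at rsp-8, 780 at rsp-1 and rsp-2 and 636 at rsp-3. In replicate 2 they were 755, 795, 586 and 1006 in the same order. rsp-3, the worm relative of the splicing factor SF2/ASF, shares its peak (III, 12688080 to 12688329) with spin-4. rsp-7 had a weaker signal of 46.1 with ranks of 1047 and 1776, and rsp-5 had 34.0.

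rsp-4, the worm relative of SC35, was the SR protein gene without a peak. No entry of any list lay in its window, and its nearest upstream gene, brap-2, ends 1404 bp away. With a window of 2000 bp upstream rsp-4 was bound as well.

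The subunits of U2AF had little signal. uaf-2, the small subunit gene, had a pooled signal of 23.3 at rank 2047, with rank 1720 in replicate 1 and 10486 in replicate 2. Its summit was the closest to a 5' end, at -23 bp, and itsn-1 on the other strand holds it as well. uaf-1, the large subunit gene, had a pooled entry of signal 4.99 at rank 24402 and no entry in either replicate.

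**Figure D3:**
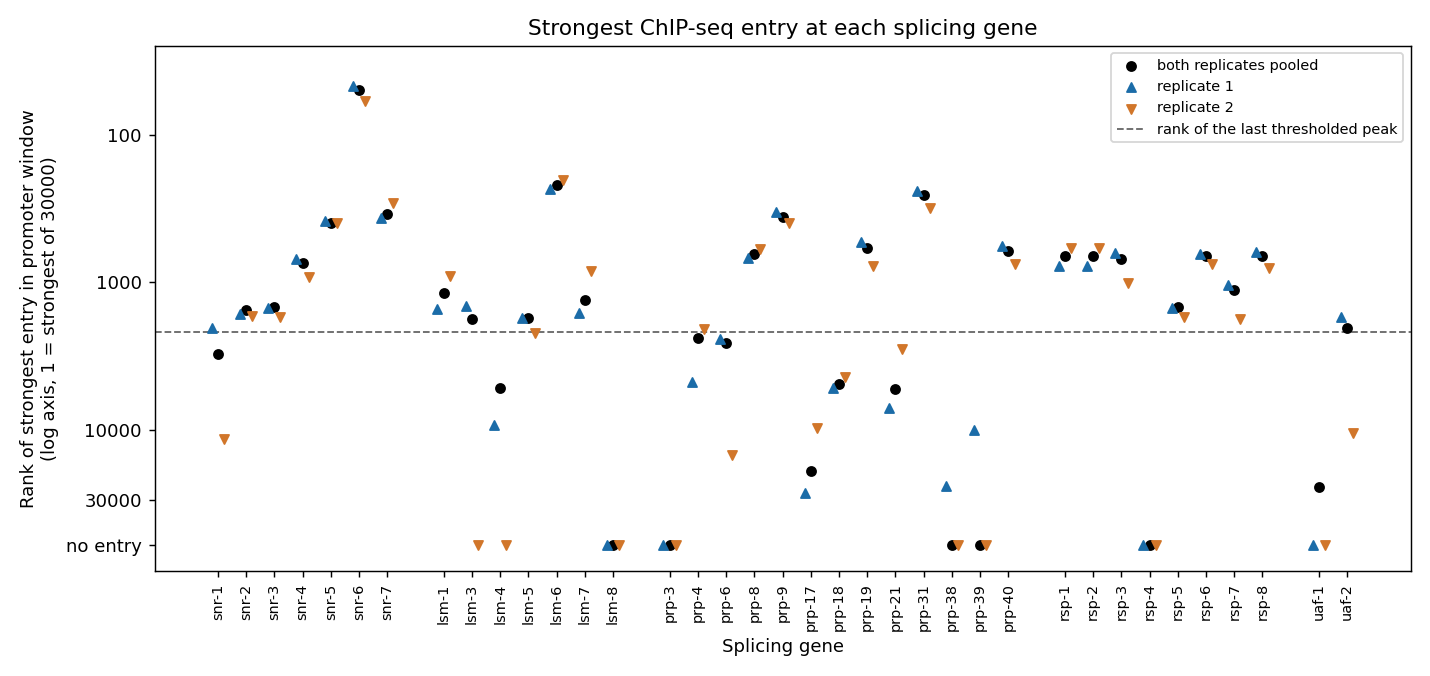
Rank of the strongest entry in the promoter window of each of the 37 splicing genes (vertical axis, log scale, 1 is the strongest of 30000) in the pooled list (circles) and in replicate 1 and replicate 2 (triangles up and down); the dashed line marks rank 2183, the last thresholded peak, and genes with no entry are drawn at the bottom. snr-6 is at the top with ranks of 50, 47 and 59, and snr-1, prp-6 and uaf-2 have replicate 2 far below replicate 1.

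The replicates placed most of these genes alike. With the 2183 strongest entries of each replicate, 25 of 37 splicing genes had a summit in the window in replicate 1 (11.7% of all genes) and 22 in replicate 2 (11.3% of all genes). In both replicates at once it was 21 (9.88% of all genes). Of the 24 bound genes 21 were among these (87.5%, against 83.7% of all bound genes), and the exceptions were lsm-3, lsm-5 and uaf-2. Replicate 2 alone thus gave 3 of 7 lsm genes and 0 of 2 uaf genes. Within 100 bp of the 22 pooled summits, an entry was found for 22 in replicate 1 and 21 in replicate 2, and the median distance to it was 5 and 8 bp. Any pooled relaxed entry, weak ones included, lay in the window of 32 of the 37 genes (86.5%), against 41.0% of all genes.

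Splicing genes often faced another gene across a short gap, and this layout was bound often in the whole genome. A gene was called divergent when the nearest protein-coding gene upstream was on the other strand and began within 1000 bp. A close tandem gene lay within 500 bp behind the end of a gene on its own strand. Of the 37 splicing genes 22 were divergent (59.5%, against 17.5% of all genes), 8 were close tandem (21.6% against 18.1%) and 7 were neither (18.9% against 64.4%). Of divergent genes 34.6% were bound in the genome, against 8.53% of close tandem genes and 6.49% of the rest.

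Within each layout the splicing genes had a larger share bound than all genes of that layout. It was 17 of 22 divergent genes (77.3%), 4 of 8 close tandem genes (50.0%) and 3 of 7 others (42.9%). The numbers are small, and the part of the layout in the overall share was not tested. All 5 bound prp genes were among the 9 divergent prp genes, and none of the 4 others was bound. All 5 divergent rsp genes were bound.

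**Figure D4:**
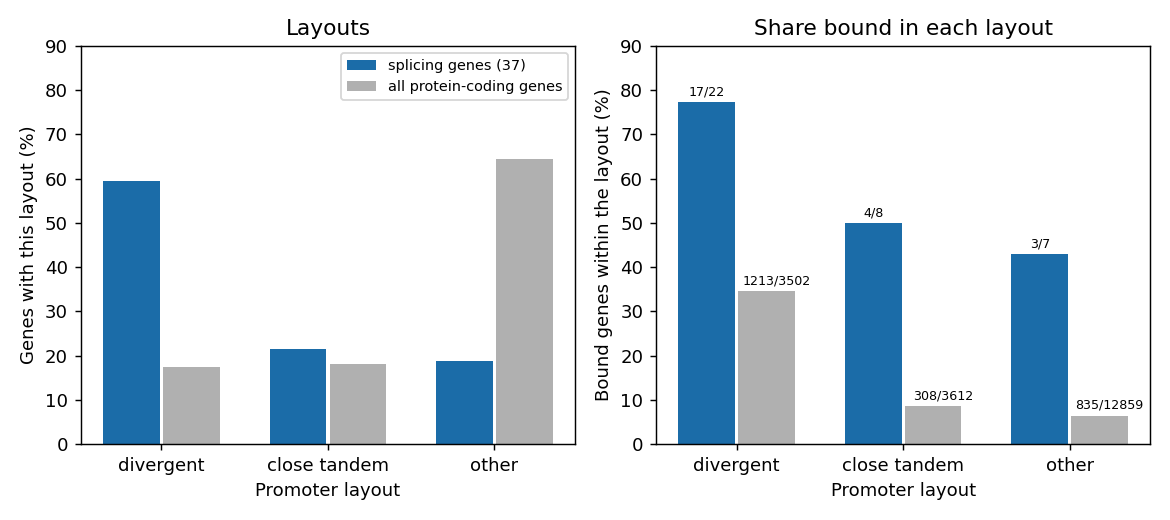
Left, the share of genes in each promoter layout (percent) for the 37 splicing genes (blue) and all protein-coding genes (grey); right, the share of genes in each layout with a thresholded summit, with counts above the bars. Divergent genes make up 59.5% of the splicing genes and 17.5% of all genes, and the blue bar is higher in each layout on the right.

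Because of this arrangement most peaks at splicing genes could belong to a neighbour as well. The summit at 20 of the 24 bound genes also lay in the window of another protein-coding gene. snr-4, lsm-5, rsp-6 and rsp-8 were alone in holding theirs (16.7%, against 944 of the 2356 bound genes in all). With a summit assigned to the single closest 5' end, 15 of 37 splicing genes were bound (40.5%), and snr-2, snr-3, lsm-1, lsm-3, lsm-7, prp-9, prp-19, rsp-2 and rsp-3 were lost.

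Some of these peaks lay between 2 genes of splicing proteins. rsp-1 and rsp-2 start 406 bp apart on opposite strands, and their peak (II, 11453095 to 11453344) has its summit -142 bp from rsp-1 and -265 bp from rsp-2. snr-3 and rsp-5, an Sm and an SR protein gene, start 403 bp apart, and theirs (II, 6489870 to 6490119) lies -234 bp from snr-3 and -170 bp from rsp-5. rsp-7 shares its peak (II, 10658795 to 10659044) with snu-13, whose product is a protein of the U4 and U6 particle. These pairs were picked out after the values were seen.

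The 4 unbound close tandem genes all stood behind a bound gene. lsm-8 follows sqd-1, whose window held a thresholded peak of signal 100.2 at rank 621. prp-3 follows smrd-1 (signal 329, rank 262), prp-39 follows hmgs-1 (83.9, rank 697) and prp-38 follows plrg-1 (47.1, rank 1107), itself a gene of the spliceosome. Over all genes, 26.0% of the 3304 unbound close tandem genes had a bound gene at the start of their chain of close tandem neighbours (860 genes). Of the 4 bound close tandem splicing genes, lsm-3 and lsm-6 had a bound gene at the start of their chain. lsm-5, behind acs-2, and rsp-6, in a chain that starts with sgo-1, did not. The case of lsm-3 adds nothing, because Y62E10A.23 and lsm-3 hold the same peak (signal 27.6, rank 1768). At lsm-6 the peaks differ, with a signal of 39.1 at rank 1309 for ubc-3. The same count over all bound close tandem genes was not made. The files do not mark operons, so it is not known here which of these chains are operons, and these counts were made after the values were seen.

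Bound splicing genes lay on each autosome. On chromosome III 7 of 9 were bound (77.8%, against 21.4% of all genes there), on II 7 of 10 (70.0%, against 415 of 3449 genes), on I 4 of 6 (66.7% against 18.6%), on IV 4 of 7 (57.1% against 10.7%) and on V 2 of 5 (40.0% against 6.55%). On each of these chromosomes the share was above that of all genes.

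Most genes of the core machinery with other names were also bound. Of 54 listed symbols 46 were found in the annotation. Of these, 27 were bound (58.7%, Wilson interval 44.3 to 71.7%), against 11.8% of all genes. Their median signal was 41.2, below the 88.4 at the named families and the 58.7 over all bound genes. The strongest were usp-39, of the particle of U4, U6 and U5 (signal 582, rank 60), the helicase gene mog-4 (433), the U2 particle gene sftb-2 (395), syf-1 of the catalytic complex (295) and eftu-2, the GTPase of the U5 particle (145.5). By role, 9 of 11 genes for assembly and SR-related factors were bound (81.8%), 8 of 13 for the catalytic complex and helicases (61.5%), 6 of 12 for U1 and U2 proteins (50.0%) and 4 of 10 for proteins of U4, U6 and U5 (40.0%). Of the 21 divergent genes in this list 19 were bound (90.5%), and of the 19 close tandem genes 5 (26.3%). Of the 14 unbound close tandem genes, 10 had a bound gene at the start of their chain (71.4%).

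Regulators of alternative splicing, many of which are known from neurons or muscle, were bound in 3 of 13 cases (23.1%, Wilson interval 8.18 to 50.3%). These were hrpf-1 (signal 444, rank 139), hrpk-1 (87.3, rank 673) and asd-1 (rank 1311), and at hrpk-1 no entry of replicate 1 lay in the window. The hrpk-1 summit lay in an intron of that gene, 198 bp downstream of the 5' end, at the edge of the window. An entry of replicate 1 just beyond that edge would not have been counted. unc-75, fox-1, mbl-1, asd-2 and msi-1 had no pooled entry in the window. None of the 13 was divergent, and 12 were neither divergent nor close tandem. Of these 12, 2 were bound (16.7%), against 6.49% of all genes with this layout. The X chromosome, where 6.04% of all genes were bound, holds 3 of the 13. The interval includes the 11.8% of all genes, and the difference from the core genes was not tested.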

How the data were processed

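ChIP-seq of eGFP-F16B12.6 in L1 larvae was analysed from the authors' ce11 peak lists (2 replicates, 1 pooled relaxed list, 1 thresholded list). According to the deposited readme notes, a relaxed list was made from each replicate with a control. The irreproducible discovery rate then gave the thresholded list out of the 3 relaxed ones. No source used here names the aligner, the caller or the depth. The signal in column 7 was deposited by the authors on an unstated scale. Intervals are Wilson intervals, which cover counting error only and treat neighbouring genes as independent.

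A summit was column 2 plus column 10, written 1-based. Genes came from Ensembl release 115 (WBcel235), and the genome from RefSeq. All 2183 thresholded peaks were the strongest pooled entries. The lookup was tested on simulated data. No test across genes was made. All 37 genes of the naming rule were described, and the 5 strongest bound genes of each further list were named. Genes, lists and the motif ACGCAG were chosen with earlier results of these data known. Lists on ce10 were not used. Sequences are printed for 7 of the 22 peaks at these genes, and the others are not reported here. Alternatives were 500 and 2000 bp windows, the nearest 5' end, overlap in place of the summit, transcript 5' ends, the 1091 strongest peaks and single replicates. Python 3.11.15, NumPy 2.4.6, SciPy 1.17.1 and pandas 2.3.3 were used.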

Additional observations from a re-analysis of the deposited data

How the results depend on the processing

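The counts of bound genes moved by at most 1.5 times in 54 of 64 combinations of gene class and alternative. With the nearest 5' end alone 15 of the 37 splicing genes and 16 other core genes were bound, against 8.20% of all genes. By class it was 4 of 7 snr, 2 of 7 lsm, 3 of 13 prp, 5 of 8 rsp and 1 of 2 uaf genes. The regulators stayed at 3 of 13 (23.1%), the same share as the prp genes in this setting. With the 1091 strongest peaks 15 splicing genes, 1 lsm gene, 0 uaf genes and 12 other core genes were bound, against 6.83% of all genes. All 5 bound prp genes stayed bound. Leaving out a replicate gave 22 to 25 splicing genes, 6 to 7 snr, 3 to 5 lsm, 5 to 6 prp, 7 rsp in both cases, 0 to 1 uaf, 23 other core genes in both cases and 2 to 3 regulators. Without replicate 1, lsm-3, lsm-5 and uaf-2 were lost and prp-4 was gained, and without replicate 2, snr-1 was gained. With a 500 bp window lsm-3, prp-19 and rsp-8 were lost. The causes were not tested. No paired analysis was possible because the 2 replicates form 1 group. The depth is unknown, so weak entries near the threshold, such as those at prp-4 and uaf-2, cannot be given a counting error.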
